A study of Mus musculus with 7 samples.

Results

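Monocytes were examined among 100676 barcodes of 7 single-cell RNA libraries of mouse liver. A barcode was kept when it held over 1000 unique molecular identifiers (UMIs) and at most 20% of them came from mitochondrial genes. Members were chosen by UMIs of 7 genes, Ly6c2, Ccr2, Ms4a6c, Ms4a4c, F13a1, Ace and Treml4, which together had to reach 4 UMIs and 0.2% of the UMIs outside mitochondrial and haemoglobin genes. Barcodes were refused where complement C1q genes reached 0.5%, S100a8 and S100a9 reached 5%, or the granule genes Elane, Prtn3, Mpo and Ctsg reached 0.5% of that total, or where Siglech or Ccr9 was seen. This left 1360 members, 1.35% of the kept barcodes.

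The labels describe every library as liver of a mouse model of hepatoblastoma, a childhood liver cancer, and give 0 groups. The study worked with mice on a C57BL/6J background in which an albumin-driven Cre switches on a human c-MYC transgene in liver cells, and with littermates lacking that pair of transgenes. Its text calls NEJ634, NEJ687, NEJ709 and NEJ723 tumors and counts 3 healthy livers besides, but the labels do not say so, and libraries were not grouped. The description of NEJ709 in the labels names NEJ634, and libraries are called here by their titles, so the identity of NEJ709 rests on its title. Values are given per library with the median and range, and with no groups in the labels no test was made.

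Monocytes are white blood cells made in the bone marrow that circulate, enter tissues and can turn into macrophages or dendritic cells. Classical monocytes carry much Ly6C and the chemokine receptor CCR2, which brings them out of the marrow and into inflamed tissue. Patrolling monocytes carry little Ly6C, crawl along the vessel wall and depend on the nuclear receptor NR4A1. In the liver, monocytes can refill the niche of Kupffer cells, the macrophages of the sinusoids.

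Members numbered 374 in NEJ634, 133 in NEJ638, 95 in NEJ654, 194 in NEJ677, 258 in NEJ687, 63 in NEJ709 and 243 in NEJ723. They made up 3.43% of kept barcodes in NEJ687 (exact 95% interval 3.03 to 3.86%) and 0.293% in NEJ709 (0.225 to 0.375%), with a median of 2.01% over libraries. The share in NEJ709 has a denominator in which 19234 of 21482 barcodes met the neutrophil limit on S100a8 and S100a9. All intervals cover counting error only. The median member held 1992 to 7392 UMIs, lowest in NEJ634 and highest in NEJ709, and 996 to 2270 genes. Mitochondrial genes took 1.05 to 6.33% of the UMIs of the median member. Haemoglobin genes took 2.32% in NEJ634 and at most 0.365% elsewhere. The barcodes of 29 members were kept in a further library too, and 1 barcode was a member in both NEJ654 and NEJ677. NEJ634 stood apart in that its T and B cells held 466 counts of the myeloid gene Lyz2 per 1000000 UMIs (CPM), against 10.9 to 84.1 elsewhere.

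**Figure D1:**
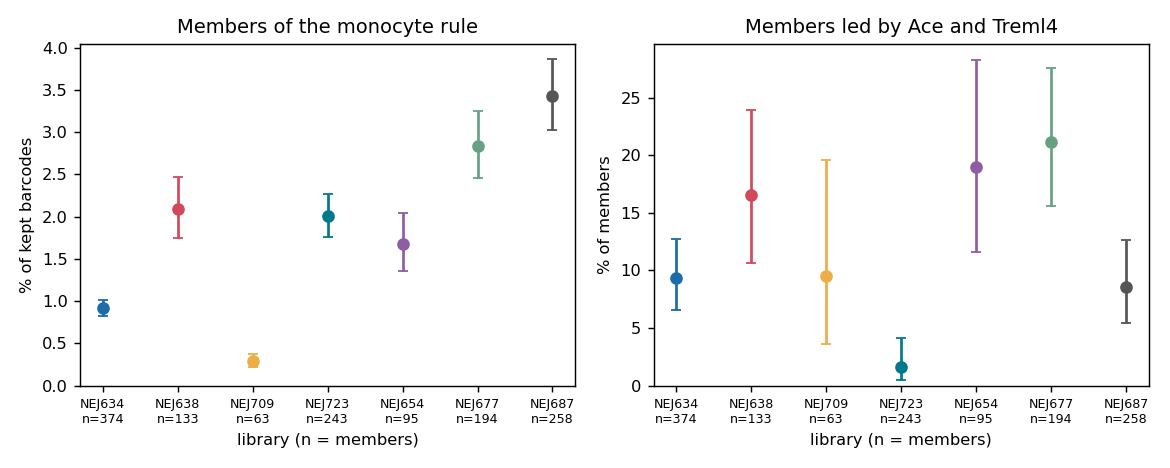
Members as a percentage of kept barcodes (left) and members led by Ace and Treml4 as a percentage of members (right) in each of 7 libraries, with exact 95% intervals as bars. NEJ687 has the highest share of members at 3.43%, and NEJ723 the lowest share led by Ace and Treml4 at 1.65%.

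The 7 rule genes chose the members, so their levels describe the choice. Levels are UMIs summed over the members of a library per 1000000 UMIs outside mitochondrial and haemoglobin genes, and they are not corrected for gene length. Positions are those of GENCODE M21 on GRCm38. Ly6c2, the gene of a surface antigen of classical monocytes (ENSMUSG00000022584, chromosome 15, 75108158 to 75111970, minus strand), stood at 1058 in NEJ634, 1449 in NEJ638, 1265 in NEJ654, 1011 in NEJ677, 935 in NEJ687, 1477 in NEJ709 and 1104 CPM in NEJ723. Its range was narrow. T and B cells of the same libraries held 186 CPM (range 75.3 to 218). Ly6c1, its close neighbour in sequence, had a UMI in members of NEJ687 alone, and how reads common to both genes were counted was not examined.

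Ms4a6c (ENSMUSG00000079419, chromosome 19, 11469366 to 11482192, plus strand) and Ms4a4c (ENSMUSG00000024675, chromosome 19, 11404770 to 11427246, plus strand) encode membrane proteins of a clustered family. Ms4a6c stood at 854 CPM (range 619 to 1144) and Ms4a4c at 189 CPM (range 84.5 to 398), with NEJ723 lowest and NEJ654 highest for Ms4a4c. Their relatives Ms4a6b at 196 CPM (range 91.9 to 320.5) and Ms4a6d at 71.2 CPM (range 43 to 151) were also present. How reads common to the family were counted was not examined. Ccr2 (ENSMUSG00000049103, chromosome 9, 124101950 to 124113557, plus strand) stood at 437 CPM (range 292 to 621).

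F13a1, the clotting factor XIII A chain made by monocytes (ENSMUSG00000039109, chromosome 13, 36867178 to 37050244, minus strand), stood at 734 in NEJ634, 301 in NEJ638, 226 in NEJ654, 335 in NEJ677, 1057 in NEJ687, 854 in NEJ709 and 1046 CPM in NEJ723. The low values were those of NEJ654, NEJ638 and NEJ677. Ace, the angiotensin-converting enzyme (ENSMUSG00000020681, chromosome 11, 105967945 to 105989964, plus strand), stood at 87 in NEJ634, 231 in NEJ638, 192 in NEJ654, 202 in NEJ677, 28.3 in NEJ687, 87.8 in NEJ709 and 3.97 CPM in NEJ723. Treml4, a receptor of the TREM family (ENSMUSG00000051682, chromosome 17, 48264295 to 48275360, plus strand), stood at 99.8 in NEJ634, 93 in NEJ638, 126 in NEJ654, 112 in NEJ677, 45.7 in NEJ687, 69.5 in NEJ709 and 13 CPM in NEJ723. NEJ723 was lowest for both of these genes of patrolling monocytes, and NEJ687 was next.

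The label was checked on 7 monocyte markers that the rule did not use. Lyz2, the lysozyme of myeloid cells, stood at 9618 in NEJ634, 11567 in NEJ638, 23369 in NEJ654, 15965 in NEJ677, 14507 in NEJ687, 7557 in NEJ709 and 8920 CPM in NEJ723. After every barcode was thinned to 1000 UMIs, Lyz2 was seen in 80 to 96.5% of members, and in 37.6% of T and B cells of NEJ634 and at most 7.78% of those of the other libraries (unthinned, 83.5 to 98.8% of members). In every library the members were far above that background.

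Cd14, a co-receptor for bacterial lipopolysaccharide, stood at 1022 CPM (range 731 to 1881) against 13.3 CPM (range 2.69 to 150.3) in T and B cells. Csf1r, the receptor that keeps monocytes and macrophages alive, stood at 254 CPM (range 183 to 435) against 5.37 CPM (range 1.66 to 18.9). The inhibitory lectin Clec4a3 stood at 146 CPM (range 113 to 330.1), and the fractalkine receptor Cx3cr1 at 57.2 CPM (range 23.1 to 159.7). The antibody receptors Fcgr1 and Fcgr4 stood at 49.3 CPM (range 38.5 to 89.7) and 35.3 CPM (range 15.9 to 51.5). For all 7 markers the level in members lay above that in T and B cells, beyond both exact Poisson intervals, in 7 of 7 libraries. This sets members apart from lymphocytes only. Csf1r, Fcgr1 and Fcgr4 stood lower in members than in macrophages rich in C1q. The 20 genes of a monocyte core list summed to 30307 CPM (range 22626 to 47506) in members. They summed to 17573 CPM (range 12912 to 23246) in those macrophages and 15107 CPM (range 8732 to 22183) in neutrophils. Lyz2, with a median of 11567 CPM in members, made a large part of their sum. By gene, 8 of 19 measured were 2-fold higher and 4 lower than in those macrophages, against 11.1% and 12.9% of all genes. Against neutrophils 9 of 18 were higher and 1 lower, against 27.2% and 8.05%. Among the 409 members without 3 UMIs of another cell type's list, the median of Cd14 was 1542 CPM, of Cx3cr1 113 CPM and of Fcgr4 22.5 CPM. Here and below, the lists screened were those of T, NK, B, plasma, conventional dendritic, endothelial, megakaryocyte, basophil, and hepatocyte and tumor genes. Neutrophil, macrophage, Kupffer cell, erythroid, mesenchymal and plasmacytoid dendritic lists were not screened.

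The label did not hold for every member. Of the 1360 members, 80 held under 2 UMIs of the 7 other markers together, and 65 of these held at least 2 UMIs of T-cell genes. They were 21 of 133 members in NEJ638, 16 of 95 in NEJ654, 29 of 194 in NEJ677 and at most 7 in each other library. A further 20 members held at least 2 UMIs of T-cell genes but also 2 of the other markers, 14 of them in NEJ634. Without thinning, 52.4% of T and B cells of NEJ634 held Lyz2 and 29% Cd14, so meeting this check there says little about identity. Summed over the 80, Ly6c2 stood at 2372 CPM and F13a1 at 12.9 CPM. The T-cell receptor complex genes Cd3d at 930 CPM and Trac at 508 CPM, and the lymphocyte chemokine Ccl5 at 10708 CPM, stood high in these members, which the rule had taken mainly by Ly6c2. In the other 1280 members Cd3d stood at 4.9 CPM, Trac at 1.99 CPM and Lyz2 at 12691 CPM. Leaving the 80 out moved the median level of Ccl5 by over 1.5 times, and of no other of 72 genes tried.

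Further lists of other cell types were read in the same way. The 8 T genes summed to 11.3 to 552 CPM in members and 1706 to 3142 CPM in T and B cells. The 8 B-cell genes summed to 8.74 to 138 CPM, and Pax5 was at 0 in 6 of 7 libraries. The 9 genes of NK and innate lymphoid cells summed to 8.74 to 614 CPM, with NEJ677 highest. The 9 endothelial genes summed to 24.9 to 433 CPM, and the 7 mesenchymal genes to 4.63 to 33.9 CPM. The 10 neutrophil genes summed to 5833 CPM (range 40.5 to 15216) in members, highest in NEJ709 and NEJ634, against 539.8 CPM (range 45 to 6320) in T and B cells. The 17 genes of macrophage maturation summed to 4387 CPM (range 2950 to 8306) against 1054 CPM (range 535 to 2018), and the 9 erythroid genes, haemoglobins included, to 19695 CPM (range 14494 to 38516) against 23869 CPM (range 7328 to 56264). Siglech and Ccr9 of plasmacytoid dendritic cells were at 0 by the rule. The 8 hepatocyte and tumor genes summed to 211 to 3215 CPM in members and 374 to 3023 CPM in T and B cells. They stood higher in members than in lymphocytes in NEJ634 and NEJ709, and lower in the other 5 libraries. Pf4, a platelet chemokine, stood at 181 CPM in NEJ723 and at most 50.9 CPM elsewhere. In NEJ723, 16.9% of members held it before any thinning, and 5 of 243 had 65.5% of its UMIs. The part of these cells and of free RNA in the levels below was not tested.

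**Figure D2:**
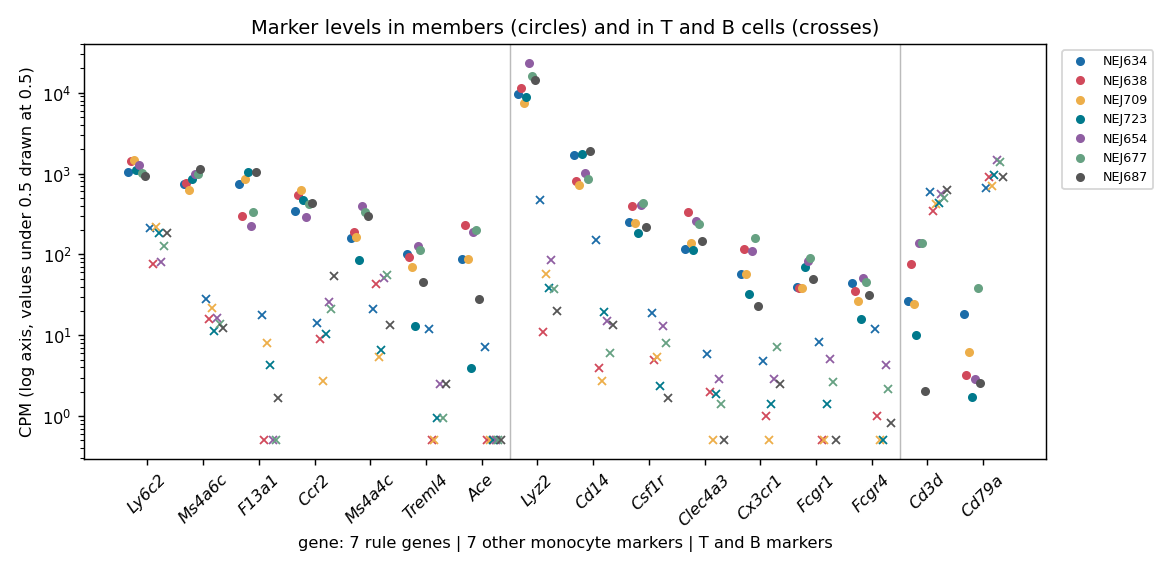
Level in CPM on a log axis of the 7 rule genes, 7 other monocyte markers, Cd3d and Cd79a in members (circles) and in T and B cells of the same library (crosses), coloured by library, with values under 0.5 drawn at 0.5. Lyz2 lies between 7557 and 23369 CPM in members and reaches 466 CPM in T and B cells of NEJ634.

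Next, levels in members were divided by those in all other kept barcodes of the same library, and the median log2 ratio over libraries was taken. A gene was called at a 2-fold median ratio, where the side with more reached 50 CPM. Of 3516 genes, 14.9% were called higher in members and 12% lower. The median log2 ratio over all 3516 was 0.04. Of the monocyte core list, 15 of 18 measured genes were higher and 0 lower, with a median of 2.08. Of the classical list 15 of 16 were higher (median 2.40), of the migration receptors 11 of 13 (1.78), of the transcription factors 9 of 14 (1.48) and of the inflammatory mediators 8 of 16 (0.99). The patrolling list was mixed, with 7 of 10 higher and Cd36 and Fabp4 lower, genes that endothelium also uses. Of the Kupffer cell identity list 7 of 8 were lower (median -3.97), and of the 8 measured neutrophil genes all 8, a direction that the limits on C1q and S100 genes partly set. Of the cell cycle list 9 of 14 were lower (median -1.12). These counts follow from a choice made on the same cells and are a description.

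Among genes outside the rule with at least 100 CPM, Vcan, a matrix proteoglycan made by classical monocytes, had the largest ratio, at 5.07 (range 4.22 to 6.52) on the log2 scale. Its level ranged from 14.3 CPM in NEJ654 to 804 CPM in NEJ687. S100a4, a calcium-binding protein of motile cells, stood at 4.49 (range 2.99 to 5.20), with 2161 CPM (range 1065 to 2400). The transcription factor Nfil3 stood at 3.51 (range 1.74 to 3.87), the aspartic protease Napsa at 3.05 (range 2.07 to 3.50), and the orphan receptor Gpr141 at 3.79 (range 3.35 to 5.33). Lyz2 stood at 3.35 (range 1.73 to 4.66), the chitinase-like protein Chil3 at 3.11 (range 1.25 to 5.47), and Ptgs2, the inducible enzyme of prostaglandin synthesis, at 3.04 (range 1.21 to 3.98). The other two of the 10, Gm9733 at 4.62 (range 2.67 to 5.49) and Sirpb1c at 4.17 (range 2.24 to 4.74), had medians of 112 and 100.2 CPM. Each of the 10 was higher in members in 7 of 7 libraries.

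Monocytes were next set against C1q-rich macrophages, barcodes with at least 4 UMIs and 0.5% of C1q genes, which numbered 93 to 2806 per library. Of 3526 genes, 11.1% were 2-fold higher in monocytes and 12.9% lower. The median log2 ratio over all 3526 was 0.02. Of the classical list, 14 of 17 genes were higher and 1, Ly6a, lower, with a median of 3.90. Vcan stood at 6.30 (range 4.75 to 7.87) on the log2 scale and S100a4 at 6.43 (range 3.99 to 7.66). Fibronectin, Fn1, stood at 1105 CPM (range 569.5 to 2265) in monocytes and 59.4 CPM (range 12 to 145) in macrophages, and the ranges did not overlap. Plac8 stood at 2292 CPM (range 845 to 3434) against 268 CPM (range 52.5 to 368).

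Macrophage genes went the other way, with 16 of 17 of the maturation list lower (median -3.16) and 8 of 9 of the Kupffer identity list (-6.34). Apoe, the lipid carrier, stood at 2317 CPM (range 1542 to 4833) in monocytes and 18524 CPM (range 9041 to 32844) in macrophages. The lysosomal protease Ctsd stood at 359.6 CPM (range 169.5 to 569) against 3206 CPM (range 1548 to 3850). The scavenger receptor Marco had a ratio of -6.34 (range -8.75 to -3.64), and Clec4f, the lectin that marks Kupffer cells, of -7.89 (range -8.83 to -3.69). Id3, which Kupffer cells need, was the exception among the 9, at 459.7 CPM (range 269 to 796) against 607 CPM (range 152 to 1699). C1qa, C1qb and C1qc are among the lower genes because the rule limits them.

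Genes that both cell types use were uneven. Csf1r stood lower in monocytes in 7 of 7 libraries, at -1.30 (range -1.68 to -0.99), as did Fcgr1 at -1.79 (range -2.51 to -0.99) and Fcgr4 at -2.13 (range -2.53 to -1.49). Adgre1, the F4/80 antigen of macrophages, stood at -2.68 (range -3.32 to -1.60). Lyz2 at 2.19 (range 0.62 to 3.12), Cd14 at 2.08 (range 1.07 to 2.66) and the integrin Itgam at 2.29 (range 1.88 to 4.14) stood higher in monocytes in 7 of 7. Of the patrolling list, 5 of 11 genes were higher in monocytes and 4, Cd36, Ear2, Fabp4 and Gngt2, lower (median 0.57), and its sum was 1256 CPM (range 477 to 2051) in monocytes and 2180 CPM (range 1497 to 2610) in macrophages. Treml4, although a rule gene, did not separate the classes, at 93 CPM (range 13 to 126) against 87.5 CPM (range 14 to 121).

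The transcription factors went both ways. Spi1, the master regulator of myeloid cells, stood at 381 CPM (range 267 to 578) in monocytes and 327 CPM (range 251 to 437) in macrophages, with a ratio of 0.09 (range -0.24 to 0.75). Cebpb, which patrolling monocytes need to survive, stood at 1792 in NEJ634, 2705 in NEJ638, 1983 in NEJ654, 1574 in NEJ677, 2459 in NEJ687, 1267 in NEJ709 and 1658 CPM in NEJ723, and above the macrophages in 7 of 7 libraries at 1.44 (range 1.14 to 1.86). Runx1 was also higher, at 1.57 (range 0.88 to 1.87). Maf at -2.72 (range -3.29 to -1.58) and Id2 at -1.54 (range -2.37 to -1.19), genes of macrophage differentiation and identity, were lower in 7 of 7. Of the 15 factors measured, 2 were called higher and 4 lower, with a median over the list of 0.09.

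**Figure D3:**
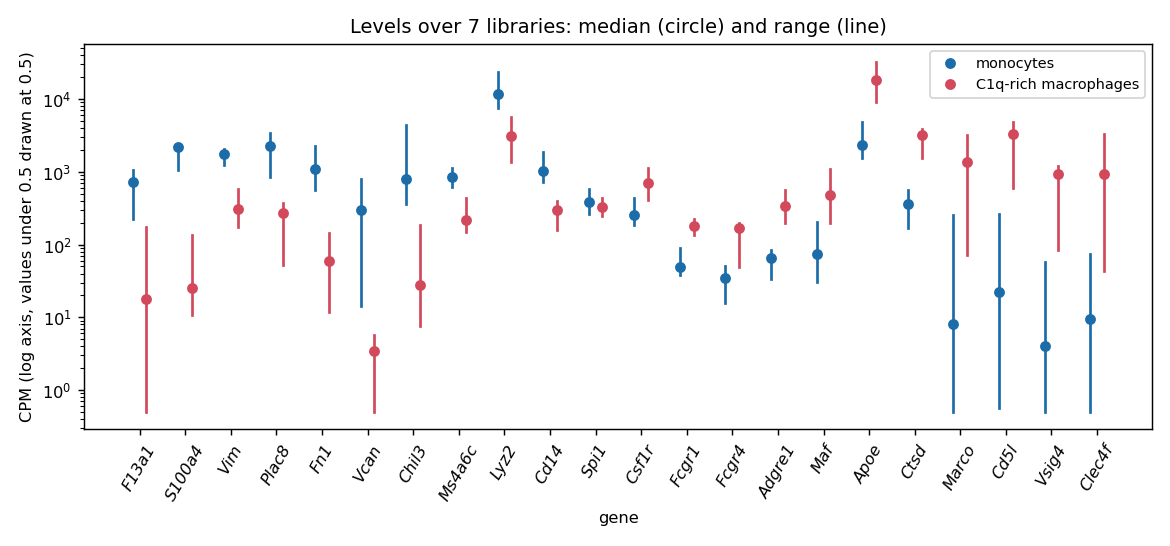
Levels in CPM on a log axis in monocytes and C1q-rich macrophages, each as the median (circle) and range (line) over 7 libraries, with values under 0.5 drawn at 0.5. S100a4, Fn1 and Vcan lie higher in monocytes, with medians of 2161, 1105 and 295 CPM, and Apoe, Ctsd and Clec4f lie higher in macrophages.

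Against neutrophils, barcodes in which S100a8 and S100a9 reached 5%, 27.2% of 3180 genes were 2-fold higher in monocytes and 8.05% lower, and the median log2 ratio over all of them was 0.55. Of the transcription factors, 9 of 13 were 2-fold higher (median 2.35), as were 7 of 7 of the class II and antigen presentation list (2.09), Cd83 and Cd86 included. Of the classical list, 7 of 16 were higher and 2, Hp and Mmp8, lower, with a median of 0.58, near that over all genes. Fn1 stood at 4.73 (range 3.12 to 6.18) on the log2 scale, Csf1r at 2.10 (range 1.46 to 4.64) and Clec4a3 at 4.01 (range 2.27 to 5.33), each higher in 7 of 7 libraries. Genes of both lineages lay closer. Cebpb stood at 0.48 (range -0.98 to 1.34), Thbs1 at 0.01 (range -1.58 to 1.68) and Il1b at 0.59 (range -3.49 to 1.67), each with libraries on either side of 0. Conventional dendritic cells reached 20 barcodes in NEJ638 alone, and no ratio was made against them.

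Members were then divided by the rule genes themselves. Those with more UMIs of Ace and Treml4 than of Ly6c2 and Ccr2 were placed on the patrolling side and those with fewer on the classical side. The patrolling side held 148 members, the classical side 1145, and 67 were tied. The share on the patrolling side was 21.1% in NEJ677 (exact 95% interval 15.6 to 27.6%), 18.9% in NEJ654, 16.5% in NEJ638, 9.52% in NEJ709, 9.36% in NEJ634, 8.53% in NEJ687 and 1.65% in NEJ723 (0.45 to 4.16%). Intervals count members within a library, and libraries were not tested against each other. NEJ723 had 4 members on the patrolling side and NEJ709 had 6. Without the 80 members that lacked other monocyte markers, the share was 24.85% in NEJ677, 22.8% in NEJ654 and 19.6% in NEJ638. It was 9.84% in NEJ709, 9.54% in NEJ634, 8.59% in NEJ687 and 1.67% in NEJ723. Without members that held 3 or more UMIs of another cell type's list, the share was 9.09% in NEJ654, below 10.7% in NEJ709, but 11 and 28 members were left there. In NEJ723 it was then 3.33% of 90 members. The division is a cut through a range, since 124 members lay 1 UMI from a tie, 237 held UMIs of both pairs and 35 of neither.

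The sides were compared in NEJ634, NEJ638, NEJ677 and NEJ687, the 4 libraries with at least 20 members on each. Of 3461 genes, 7.97% were 2-fold higher on the patrolling side and 4.62% lower. The median log2 ratio over all 3461 was 0.02. Of the patrolling list, 13 of 13 measured genes were higher, with a median of 2.74, as was C1qa of the macrophage maturation list, 1 of 8. Of the classical list, 6 of 16 were lower, among them Fn1, Thbs1 and Vcan, and 0 higher, with a median of -0.65. As 4 genes of the same cells made the division, these counts are a description, and the patrolling side rests on 22 to 41 members a library.

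Cx3cr1, Adgre4 and Itgal were among the patrolling genes whose levels did not overlap between sides, while those of others, such as Fabp4, did. Here and below, the share of all genes without such overlap was not counted. Cx3cr1, which tethers patrolling monocytes to the vessel wall, stood at 272 in NEJ634, 344 in NEJ638, 299 in NEJ677 and 222 CPM in NEJ687 on the patrolling side and 34.5 in NEJ634, 76.3 in NEJ638, 131 in NEJ677 and 13.1 CPM in NEJ687 on the classical side. Adgre4, an adhesion receptor, stood at 262 in NEJ634, 467 in NEJ638, 256 in NEJ677 and 160.3 CPM in NEJ687 against 21.6 in NEJ634, 49.6 in NEJ638, 39.1 in NEJ677 and 12.6 CPM in NEJ687. The integrin chain Itgal, with which these cells crawl, stood at 585 in NEJ634, 1696 in NEJ638, 606 in NEJ677 and 481 CPM in NEJ687 against 159 in NEJ634, 386 in NEJ638, 197 in NEJ677 and 75.9 CPM in NEJ687. For each of Cx3cr1, Adgre4 and Itgal, every patrolling value was above every classical one.

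The antibody receptor Fcgr4 had a median log2 ratio of 3.83 (range 2.03 to 5.25), the G-protein subunit Gngt2 of 2.74 (range 2.42 to 3.02), the eosinophil-type ribonuclease Ear2 of 2.76 (range 1.76 to 2.95) and the lipid receptor Cd36 of 3.07 (range 1.53 to 5.96). Eno3, a muscle-type enolase, had the largest, 4.41 (range 0.36 to 6.04), and NEJ638 with 24.6 CPM on the patrolling side was its low value. Of the 10 largest higher genes, the others were the ion carrier Slc12a2 at 4.32 (range 1.42 to 7.50), the checkpoint ligand Cd274 at 3.64 (range 2.28 to 3.72), the phosphatase Dusp16 at 3.04 (range 2.32 to 3.69), Bcl2a1a at 3.02 (range 2.96 to 5.23), the receptor kinase Grk3 at 2.89 (range 1.45 to 3.17) and Gfpt1, the entry enzyme of hexosamine synthesis, at 2.84 (range 1.85 to 3.04). Cd274 and Bcl2a1a had a ratio in 3 of the 4 libraries. Bcl2a1a has near-identical copies, so its counts are uncertain. Fcgr4, Csf1r, Cd36, Ear2 and Gngt2 were also called higher in C1q-rich macrophages than in monocytes. C1qa, which the rule limits, had a ratio of 1.01 (range 0.30 to 3.22) between the sides and was called higher on the patrolling side, while C1qb had -0.02 (range -0.89 to 1.29). The part of macrophage RNA in the ratios of the sides was not tested.

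Of the 13 transcription factors compared between the sides, 4 were called higher on the patrolling side, Id2, Klf2, Nr4a1 and Pou2f2, and 0 lower, with a median over the list of 0.60. Nr4a1, on which patrolling monocytes depend, stood at 252 in NEJ634, 639 in NEJ638, 1446 in NEJ677 and 395 CPM in NEJ687 on the patrolling side and 96 in NEJ634, 229 in NEJ638, 696 in NEJ677 and 94.5 CPM in NEJ687 on the classical side. The patrolling value was the higher in 4 of 4 libraries, but the level moved with the library on both sides, NEJ677 being highest on each. Pou2f2 stood at 282 in NEJ634, 492 in NEJ638, 839.8 in NEJ677 and 739.9 CPM in NEJ687 against 72.3 in NEJ634, 153 in NEJ638, 232 in NEJ677 and 63.3 CPM in NEJ687, and every patrolling value was above every classical one. Klf2 had a ratio of 1.14 (range 0.82 to 1.69). Spi1, at 0.71 (range 0.28 to 1.49), and Cebpb, at 0.37 (range 0.20 to 0.62), were not called. Csf1r was also higher on the patrolling side, with 726 in NEJ634, 762 in NEJ638, 694 in NEJ677 and 739.9 CPM in NEJ687 against 205 in NEJ634, 328 in NEJ638, 386 in NEJ677 and 189.5 CPM in NEJ687.

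On the classical side, Fn1 stood at 1206 in NEJ634, 832 in NEJ638, 929 in NEJ677 and 1308 CPM in NEJ687, against 393 in NEJ634, 147 in NEJ638, 73 in NEJ677 and 234 CPM in NEJ687 on the patrolling side. Vcan had a ratio of -2.40 (range -5.06 to -0.48). The -0.48 was that of NEJ638, where Vcan was at 0 on the patrolling side and 3 UMIs were set. F13a1 and Ms4a6c were not used in the division, but the rule counts them in the same sum as the genes that were. Their ratios may thus follow in part from the choice of members. F13a1 had -2.62 (range -3.77 to -1.99), while Ms4a6c was even, at -0.07 (range -0.13 to 0.19). Chil3 and Plac8, counted among the classical genes, were not called, at -0.53 (range -1.11 to 0.02) and 0.31 (range -0.04 to 0.87). Lyz2 and Cd14 were near even, at -0.34 (range -0.48 to -0.19) and -0.01 (range -0.45 to 0.21).

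Of the cell cycle list, 5 of 11 genes were called lower on the patrolling side and 0 higher, with a median over the list of -0.98. Top2a, which untangles DNA, stood at -2.10 (range -3.54 to -1.63) and Tubb5 at -2.06 (range -3.20 to -1.05). Cenpa at -2.54 (range -2.85 to -1.27), Hmgn2 at -2.09 (range -3.49 to -0.31) and Selenoh at -2.05 (range -2.45 to -0.31) were further genes among the 10 lowest. Patrolling-side values of these genes often rest on few UMIs. Top2a stood there at 50.4 in NEJ634, 24.6 in NEJ638, 7.3 in NEJ677 and 24.7 CPM in NEJ687, of totals of 40695 to 136933 UMIs. The size of these ratios is thus uncertain. Of the class II and antigen presentation list, 4 of 8 were lower, H2-Aa, H2-Ab1, H2-DMb1 and H2-Eb1. In the same list 1, Cd83, was higher, and the median was -0.94. H2-Eb1 had -2.13 (range -2.67 to -0.53) and H2-Aa -1.91 (range -2.44 to 0.18). Both were at 0 on the patrolling side of NEJ638 and NEJ687, where 3 UMIs were set. Ccl5 was also among the 10 lowest at -2.57 (range -4.18 to 0.51), but at -0.02 without the 80 members that lacked other monocyte markers. Of 15 inflammatory mediators, 4 were called higher on the patrolling side, Ccl3, Il1b, Il1rn and Tnf, and 1, Osm, lower, at -1.26 (range -1.63 to -0.78). Il1b was higher on the patrolling side in 4 of 4 libraries, at 1.39 (range 0.81 to 1.77), and Tnf in 3 of 4, at 2.16 (range -1.22 to 2.77).

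**Figure D4:**
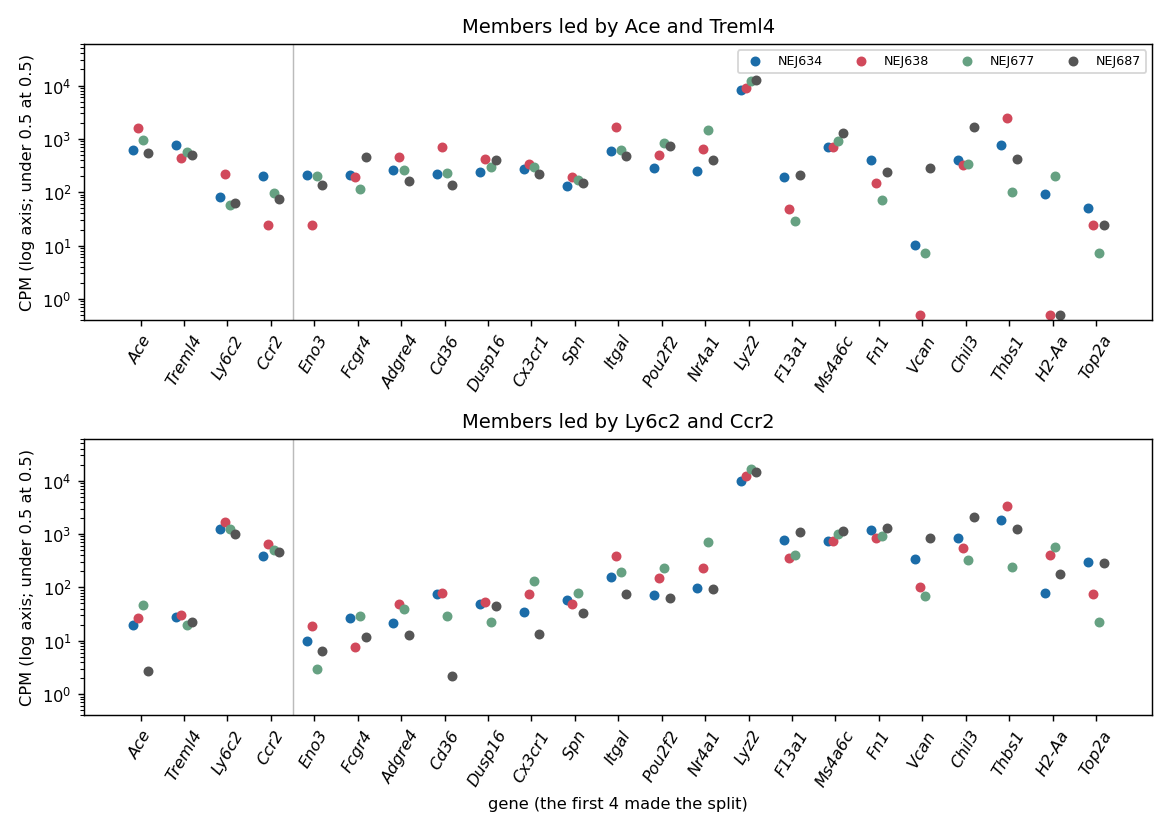
Levels in CPM on a log axis of named genes in members led by Ace and Treml4 (top) and in members led by Ly6c2 and Ccr2 (bottom) of 4 libraries, with values under 0.5 drawn at 0.5 and the 4 genes that made the division at the left. Cx3cr1 lies between 222 and 344 CPM in the top panel and between 13.1 and 131 CPM in the bottom panel.

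Between libraries, monocytes differed in genes of division more widely than in the lists of class II, interferon or inflammatory genes. The 15 cell cycle genes summed to 2961 in NEJ634, 808 in NEJ638, 298 in NEJ654, 464 in NEJ677, 3130 in NEJ687, 2768 in NEJ709 and 2002 CPM in NEJ723. After thinning to 1000 UMIs, the share of members with Mki67 or Top2a was 36.6% in NEJ634, 2.26% in NEJ638, 2.1% in NEJ654, 2.06% in NEJ677, 23.3% in NEJ687, 25.4% in NEJ709 and 14% in NEJ723. NEJ638, NEJ654 and NEJ677 were lowest on both measures. They were also the 3 lowest in the cell cycle sum of neutrophils, which ran from 102 to 3678 CPM. In C1q-rich macrophages NEJ638 was instead the highest, with 2396 CPM against 709 to 2071 CPM. T and B cells of the same libraries had 33.8% in NEJ634, 6.61% in NEJ638, 4.91% in NEJ654, 3.38% in NEJ677, 11.3% in NEJ687, 4.05% in NEJ709 and 11.9% in NEJ723, and the exact intervals of members and lymphocytes overlapped in NEJ634, NEJ723, NEJ654, NEJ638 and NEJ677 but not in NEJ687 or NEJ709. In NEJ634, 31.7 to 41.7% of members and 28.4 to 39.5% of lymphocytes held either gene by those intervals, and lymphocytes can divide too.

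The list of 10 granule and precursor genes summed to 436 to 2444 CPM, but much of this sum was Hp, a plasma protein gene that is also on the classical list, at 607 CPM (range 336 to 1434). The rule caps 4 of the 10 genes, Elane, Prtn3, Mpo and Ctsg, and neutrophils held more of the list than members in every library, 1480 to 4913 CPM. The neutrophil list in members was lowest in NEJ677, NEJ654 and NEJ638, at 40.5 to 2619 CPM against 5833 to 15216 CPM, and its part in the sum was not tested. Prtn3, a granule protease whose sum with 3 others the rule limits to 0.5%, stood at 382 in NEJ634, 16 in NEJ638, 14.3 in NEJ654, 14.7 in NEJ677, 724 in NEJ687, 333 in NEJ709 and 242 CPM in NEJ723. Chil3, which rises as marrow monocytes form, stood at 797 in NEJ634, 513 in NEJ638, 429 in NEJ654, 361 in NEJ677, 2019 in NEJ687, 2729 in NEJ709 and 4396 CPM in NEJ723. It was highest in NEJ723, NEJ709 and NEJ687. Among the 409 members without 3 UMIs of a screened list its median was 1766 CPM, but neutrophil genes were not screened. Against neutrophils Chil3 was not called. Flt3, a growth factor receptor of early progenitors and dendritic cells, stood at 8.24 in NEJ634, 12.8 in NEJ638, 11.4 in NEJ654, 14.7 in NEJ677, 26.7 in NEJ687, 26.6 in NEJ709 and 44.8 CPM in NEJ723, and thinned shares of 0.515 to 3.17% had overlapping intervals. In NEJ723, 2.47% of thinned members (interval 0.911 to 5.3%) and 0.516% of its T and B cells (0.107 to 1.5%) held a Flt3 UMI, and unthinned, at median depths of 6695 and 2925 UMIs, 23.5% and 1.03% did. Fn1 ranged less, from 569.5 to 2265 CPM.

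Interferon-response genes had another order. The 17 genes of that list summed to 2005 in NEJ634, 2695 in NEJ638, 6293 in NEJ654, 5622 in NEJ677, 1731 in NEJ687, 2664 in NEJ709 and 1619 CPM in NEJ723, with NEJ654 and NEJ677 highest. Ifi27l2a stood at 1252 in NEJ634, 1724 in NEJ638, 3872 in NEJ654, 3399 in NEJ677, 1037 in NEJ687, 1677 in NEJ709 and 754 CPM in NEJ723. Isg15, a ubiquitin-like protein, stood at 121 CPM (range 51.3 to 335) with NEJ654 highest, and Bst2, which tethers virus particles, at 152 CPM (range 127 to 478) with NEJ654 highest. T and B cells of NEJ654 and NEJ677 also held the highest sums among lymphocytes, 1897 and 1585 CPM against 474 to 979.9 CPM elsewhere.

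Klf2 and Nr4a1, factors of patrolling monocytes, were also highest in NEJ654 and NEJ677. Klf2 stood at 91.5 in NEJ634, 119 in NEJ638, 535 in NEJ654, 416 in NEJ677, 103 in NEJ687, 89.9 in NEJ709 and 69.2 CPM in NEJ723. Nr4a1, which is also an early-response gene, stood at 109.8 in NEJ634, 285 in NEJ638, 632 in NEJ654, 813 in NEJ677, 109 in NEJ687, 204 in NEJ709 and 326 CPM in NEJ723. In T and B cells Klf2 was likewise highest in those libraries, at 433 and 471 CPM against 108 to 223 CPM elsewhere, and Nr4a1 ranged from 89.4 to 367 CPM.

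Class II genes, which present antigen to helper T cells, formed a list of 10 with further genes of antigen presentation. That list summed to less in members than in T and B cells in 7 of 7 libraries. Cd74, the invariant chain of class II, stood at 897 CPM (range 422 to 1880) in members and 2988 CPM (range 1594 to 6528) in T and B cells, which include class II-rich B cells. H2-Aa was seen in 2.47 to 10.3% of thinned members. Cd209a, a lectin of monocyte-derived dendritic cells, stood at 0 in NEJ634, 44.9 in NEJ638, 14.3 in NEJ654, 41.8 in NEJ677, 5.65 in NEJ687, 16.3 in NEJ709 and 2.27 CPM in NEJ723, and was nearly absent from T and B cells, at 0 CPM (range 0 to 0.476). It was highest in NEJ638 and NEJ677. Without members that held 3 or more UMIs of another cell type's list, the median of Cd209a, itself on the dendritic cell list, moved from 14.3 to 0.928 CPM, that of H2-Aa from 243 to 72.8 CPM, and that of Cd74 from 897 to 390.5 CPM.

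Inflammatory genes had the highest sums in NEJ687 and NEJ723, at 9887 and 9844 CPM, and the lowest in NEJ638, at 3429 CPM. Cxcl2, a chemokine that draws neutrophils, stood at 957 in NEJ634, 657 in NEJ638, 1465 in NEJ654, 308 in NEJ677, 3216 in NEJ687, 1547 in NEJ709 and 2951 CPM in NEJ723. Il1b, a cytokine of the inflammasome, stood at 1584 in NEJ634, 715 in NEJ638, 1262 in NEJ654, 907 in NEJ677, 2736 in NEJ687, 968 in NEJ709 and 1880 CPM in NEJ723. Ccl2, the ligand of CCR2, stood at 473 CPM in NEJ723, where 5 of 243 members had 48.4% of its UMIs, and between 60.2 and 110.3 CPM elsewhere.

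Migration receptors stood highest in NEJ638, where Cxcr4, which holds cells in the marrow, was at 1772 CPM against 143 to 316 CPM elsewhere. T and B cells of NEJ638 also stood high in Cxcr4, at 1365 CPM. NEJ638 was likewise highest for Thbs1, at 3221 CPM, and for the haem-degrading enzyme Hmox1, at 2609 CPM. Without thinning, Hmox1 was seen in 77.4% of its members.

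**Figure D5:**
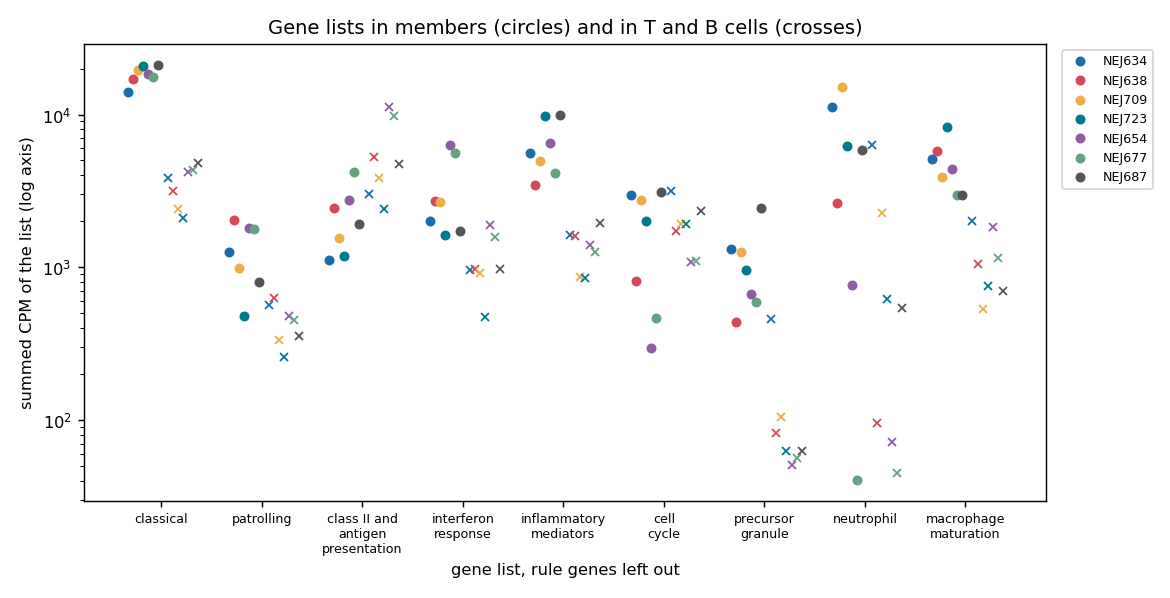
Summed CPM on a log axis of 9 gene lists, rule genes left out, in members (circles) and in T and B cells (crosses) of each library. The cell cycle sum runs from 298 CPM in NEJ654 to 3130 CPM in NEJ687, and the interferon sum is highest in NEJ654 at 6293 CPM.

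The 10 genes of widest range between libraries were in part those of a few barcodes. Camp, a neutrophil granule protein, reached 2423 CPM in NEJ709, and 1 of its 63 members held 86.1% of those UMIs. Ngp, of the same granules, reached 2268 CPM there, 85.3% from 1 member. The antibody genes Ighg2b and Igkc reached 1161 and 1123 CPM in NEJ677, and single members held 99.9% and 94.2% of them. Arg1, an arginine-degrading enzyme, reached 423 CPM in NEJ723, with 77.6% from 2 of 243 members. These 5 values rest on 1 or 2 barcodes each.

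Spp1, osteopontin, was broader. It stood at 126 in NEJ634, 3.21 in NEJ638, 0 in NEJ654, 28.3 in NEJ677, 58.6 in NEJ687, 431 in NEJ709 and 1872 CPM in NEJ723. Without thinning, 25.5% of members of NEJ723 held it, though 5 of them had 79% of its UMIs. With C1q limited to 0.25% its median over libraries moved from 58.6 to 28.3 CPM. For the ranking by range a count of 0 was set to 3 UMIs, which is 1.54 to 9.62 CPM by library. A count of 0 thus does not exclude a low level. S100a8, limited together with S100a9 by the rule to under 5%, stood at 5367 in NEJ634, 1769 in NEJ638, 223 in NEJ654, 14.7 in NEJ677, 3839 in NEJ687, 6264 in NEJ709 and 4248 CPM in NEJ723. In NEJ709, 5 of 63 members held 55.1% of its UMIs. The low values were those of NEJ677 and NEJ654, and T and B cells reached 2230 CPM in NEJ634. Chil1, a second chitinase-like protein, stood at 118 in NEJ634, 151 in NEJ638, 175 in NEJ654, 0 in NEJ677, 0.514 in NEJ687, 12.3 in NEJ709 and 31.2 CPM in NEJ723, with at most 8.29 CPM in T and B cells, and no 5 members held over 45.9% of it in NEJ654. Cd5l, a Kupffer cell gene, was highest in NEJ634, at 265 CPM against 157 CPM in its T and B cells. Xist, the RNA that silences an X chromosome, was at 0 in NEJ709, NEJ723, NEJ677 and NEJ687 and at 581, 1157 and 369 CPM in NEJ634, NEJ638 and NEJ654.

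Pooled over libraries and without thinning, barcodes on either side of the lower limit were close in Lyz2. Among 267 barcodes with 3 rule-gene UMIs that met every other limit, 87.6% held Lyz2, against 94% of the 184 members with 4 UMIs, 87.5% of the 383 with 5 to 9 and 97% of the 793 with at least 10. At least 2 UMIs of T-cell genes were held by 7.12% of those with 3 rule-gene UMIs and 9.78% with 4. They were held by 11.75% with 5 to 9 and 2.77% with at least 10. Of the 302 members with 4 or 5 UMIs, 212 were from NEJ634, where 52.4% of T and B cells held Lyz2 without thinning. Lyz2 alone thus tells little about identity at this limit. Of the refused barcodes that failed a single limit, 43 failed on C1q, 232 on S100 genes, 163 on granule genes and 125 on Siglech or Ccr9. The S100 limit weighed most in NEJ709, where it alone refused 164 barcodes beside 63 members, and the granule limit in NEJ634, where it refused 71 beside 374.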

How the data were processed

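Single-cell RNA was measured in 7 libraries of mouse liver made with a 10x 3' kit. The authors deposited a table of UMI counts per gene and barcode for each library, not normalized. The file headers name Cell Ranger 4 and the processing notes in the labels Cell Ranger 6.0, so which version made the files was not settled, and the genome build is not given in the sources used here. The study's methods state that introns were included in counting, which adds reads of unspliced RNA. Of 32285 genes, 32235 matched GENCODE M21.

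The members and gene lists were chosen with earlier results of these data known. Counts were summed over members of a library and divided by UMIs outside mitochondrial, Hba- and Hbb- genes, per 1000000 (CPM). Total counts behind the levels were 312007 to 1945632 UMIs a library. Barcodes outside the rule were assigned to C1q-rich macrophages (4 UMIs and 0.5% of C1q genes), neutrophils (5% of S100a8 and S100a9), T cells (3 UMIs and 0.15% of Cd3d, Cd3e, Cd3g and Trac) and B cells (4 UMIs and 0.2% of Cd79a, Cd79b and Ms4a1), in that order. No doublet caller was run. Cells from 1 library are not replicates and the labels give 0 groups, so levels, ratios and shares carry no p-value, and intervals are exact Poisson or Clopper-Pearson (95%). In ratios a library at 0 was set to 3 UMIs, and 1 with at most 3 UMIs on both sides gave no ratio. A count above 0 but below 3 was left as it was, and can give a larger ratio than 0 does. A ratio over libraries needs at least 20 barcodes a side, or, between patrolling and classical members alone, 10 where fewer than 3 libraries reached 20. Shares of barcodes holding a gene were thinned to 1000 UMIs a barcode unless stated.

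Genes named are the 7 rule genes, up to 6 of each list by median CPM with those counted, the 10 of largest ratio to other barcodes, the 10 largest each way between patrolling and classical members (at least 100 CPM) and the 10 of widest range. Further list genes, relatives of the rule genes and the genes beside the 80 members without other markers were named after their values were seen. Python 3.11.15, numpy 2.4.6, scipy 1.17.1, pandas 2.3.3 and matplotlib 3.10.9 were used. The ratio of members to other barcodes was tested on simulated counts with known folds, at the depth of all members. The ratios between patrolling and classical members, which rest on fewer UMIs, were not simulated. Values of some genes that these rules would name are not reported here.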

Additional observations from a re-analysis of the deposited data

Results flagged for a closer look

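Barcodes with over 500 and at most 1000 UMIs lie outside the kept barcodes. Of these, 34 met every other limit of the rule, and 29 of them held at least 2 UMIs of the 7 other monocyte markers. NEJ634 held 23 of the 34, out of 26399 such barcodes, NEJ677 held 7 of its 1315, NEJ709 held 2, and NEJ654 and NEJ687 held 1 each. They enter no level or share above.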

How the results depend on the processing

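The number of members depended on the lower limit on the 7 rule genes. At least 3 UMIs and 0.1% gave 2724 members and at least 8 UMIs and 0.4% gave 320, against 1360, and NEJ634 went from the most members, 374, to 24 of the 320. Leaving out members with 3 or more UMIs of another cell type's list left 409, and 1035 where hepatocyte and tumor genes were allowed, a setting chosen after seeing the data. The share led by Ace and Treml4 was, among the 409, 6.45% of 31 members in NEJ634, 9.09% in NEJ654 and 27.7% in NEJ677. Other limits on UMIs, mitochondrial, C1q or S100 genes gave 1098 to 1394 members. Without thinning, the median share of members with Lyz2 was 96.8% (84.2% thinned), with Csf1r 65.8% (23.6%) and with Mki67 or Top2a 39.5% (14%). The ratio to other barcodes without NEJ634 had 533 genes 2-fold higher and 577 lower, and without NEJ709 498 and 592. With all libraries it had 523 and 421, or 14.9% and 12% of 3516 genes. Without NEJ634 the sides had 295 genes higher and 205 lower, against 276 and 160, or 7.97% and 4.62% of 3461 genes. The genes tested change when a library is left out and their number is not given here, so counts cannot be read as shares across settings. These settings without a library, without members lacking other markers and without shared barcodes in the ratio were chosen after seeing the data. Leaving out members by the screened lists moved 26 of 72 gene levels by over 1.5 times, among them Cd14, Cx3cr1 and Chil3. Further ones were Vcan (502 CPM from 295), Il1b (1925 CPM from 1262), Cxcl2 (2364 CPM from 1465) and Mki67 (136 CPM from 217). Top2a (97.7 CPM from 172), S100a8 (2387 CPM from 3839) and Ptgs2 (334 from 208) also moved. Weighting members equally moved 7, Vcan, Top2a, Elane, Cd274, Bcl2a1a, Tubb5 and Igkc, and a C1q limit of 0.25% moved 1, Spp1. No named ratio changed sign under the settings run, but without NEJ634 or NEJ709 more genes were lower than higher against other barcodes, and among the 409 members NEJ654 fell below NEJ709 in the share led by Ace and Treml4. The comparison of sides without members of another cell type's list was not run, since fewer than 3 libraries kept even 10 members a side. Levels of genes with few UMIs in NEJ709 or on the patrolling side are limited by depth. No paired analysis was possible because the labels give neither groups nor replicate numbers.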

Other observations

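Genes of the early stress response, which cells switch on within minutes of a stimulus or of handling, summed to 4540 to 9395 CPM in monocytes and 4012 to 5931 CPM in T and B cells of the same libraries. Of the 12 genes, 4 were 2-fold higher in monocytes than in other barcodes, Atf3, Fos, Junb and Zfp36, and 1, Egr1, was lower, against 14.9% and 12% of all genes tested, with a median log2 ratio of 0.58. Zfp36, which shortens the life of cytokine mRNAs, stood at 1.92 (range 0.98 to 2.36), and Junb at 1.23 (range 0.71 to 1.76). Between the patrolling and classical sides, 0 of the 12 were called, against 7.97% higher and 4.62% lower of all genes. Against C1q-rich macrophages, 3 of 10 interferon-response genes were lower in monocytes and 0 higher, against 12.9% and 11.1% of all genes tested. These were Bst2 at -1.36 (range -1.94 to -1.09), the transcription factor Irf7 at -1.15 (range -1.88 to -0.22) and Rsad2, viperin, at -1.01 (range -2.32 to -0.22).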
